A study of Homo sapiens with 24 samples.

Results

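The genes described here are 36 genes of the endoplasmic reticulum (ER): chaperones and protein disulfide isomerases, the sensors and factors of the unfolded protein response (UPR), genes of ER-associated degradation, translocon subunits, stress-inducible secreted factors and the CREB3 family of transcription factors. They were chosen by name, as the rows of the count table whose Ensembl identifiers carry these symbols, and all 36 were found among 60675 identifiers. The cells are MIA PaCa-2, an established line from a human pancreatic carcinoma, transduced with pCW57, a Tet-On vector in which doxycycline drives the inserted gene. C/EBPδ-inducible cells carry the CEBPD cDNA and mVenus and are a pool of 3 clones, and CTRL cells carry the vector without that cDNA and with mCherry. Wells of each line in complete medium received 2 µg/mL doxycycline and were harvested at 0, 8, 24 and 48 h, with 3 wells per group, which gives 8 groups and 24 libraries of total RNA without ribosomal RNA. The labels list the dose at 0 h as well, whereas the methods of the study describe untreated cells, and the 0 h libraries were taken as untreated. Because no library without doxycycline was analysed here for 8, 24 or 48 h, doxycycline and time in culture cannot be told apart within a line. The comparison of the changes between the lines sets cells with the CEBPD cDNA against cells without it. The inducible cells are clones and the CTRL cells are not described as such. Clonal and C/EBPδ-dependent differences between the lines therefore cannot be told apart, at 0 h or in the changes after it.

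Library totals ran from 12731237 to 22598595 counts (median 18959363.5), and levels are given as CPM, which are counts relative to library size after TMM scaling over all 24 libraries. CEBPD itself, the induced gene, averaged 3.94, 1.90, 3.55 and 4.02 CPM in CTRL cells at 0, 8, 24 and 48 h and 21.5, 249, 307 and 204 CPM in the inducible cells, so that the libraries match their labels and the inducible line was above CTRL before doxycycline. The keratins KRT8 and KRT18, which mark epithelial cells, averaged 1559.8 and 1154 CPM in CTRL cells and 74.3 and 113 CPM in inducible cells at 0 h, whereas the mesenchymal marker VIM was high in both lines. Of the other epithelial markers EPCAM and KRT7 were low, near 1 CPM, whereas KRT19 made up most of the rest of the sum given below at 0 h. The pancreatic acinar and islet markers and the leukocyte marker PTPRC were at the floor of 3 counts or fewer per library. Summed over the 5 epithelial markers, the level ran over the 3 libraries from 2809 to 2949 CPM at 0 h, 2336 to 2625 at 8 h, 2428 to 2446 at 24 h and 2064 to 2173 at 48 h in CTRL cells, and from 203 to 208, 186 to 194, 114 to 119 and 130.1 to 141 in inducible cells. By the test used below, 1, 3 and 2 of these 5 markers fell at 8, 24 and 48 h in CTRL cells, and in inducible cells 1 fell at 8 h, 3 fell at 24 h and 3 fell and 1 (KRT7) rose at 48 h. The change differed between the lines for 3 of them at 24 h (KRT8, KRT18 and KRT19, lower in inducible cells) and for 1 (KRT8) at 48 h. VIM fell by 0.13 on the log2 scale at 48 h in inducible cells, and of the fibroblast markers COL1A1 rose at 48 h in inducible cells, from 0.551 to 1.52 CPM, while DCN stayed at or near 0. These keratin changes stand beside the changes within a line and between the lines below, and their part in them was not tested. Some libraries at 8 h stood further apart than those of other times. Chi-square per gene of inducible library 3 against libraries 1 and 2 was 12.3 and 12.5, against 2.34 between the latter, and that of CTRL libraries 1 and 3 was 16.7, whereas it ran from 1.66 to 8.36 between libraries of the same group at the other times. As these are bulk libraries, a change in the share of cells that express a gene and a change in RNA per cell cannot be told apart. The paper's methods describe wells seeded in triplicate, and its supplement speaks of biological triplicates for a marker panel. The p-values measure the spread between the 3 libraries of a group.

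The ER folds secreted and membrane proteins, and unfolded protein in its lumen draws the chaperone BiP (HSPA5) away from 3 sensors in its membrane. IRE1 (ERN1) splices the mRNA of XBP1 into a potent transcription factor. ATF6 moves to the Golgi, where the site-1 and site-2 proteases release its active part. PERK (EIF2AK3) phosphorylates eIF2α, which lowers translation and raises ATF4. XBP1 and ATF6 drive chaperones, isomerases, the translocon and the degradation machinery through ER stress elements in promoters, and the CREB3 proteins are membrane-bound factors activated by the same Golgi proteases. Exocrine pancreas secretes large amounts of enzyme and depends on this response.

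Promoters are shown first, since the ER stress element (ERSE), the element bound by ATF6 and XBP1 together with NF-Y, is what links the chaperone genes to the sensors. RefSeq sequence (GRCh38.p14) of the 250 bases before each annotated start held a window for 33 of the 36 genes, leaving DERL1, DERL3 and PDIA3 without one. The ERSE, which is CCAAT, 9 bases of any kind and CCACG, was found on either strand in the windows of 7 members, and in 0.074% of all 35116 windows. In the lines that follow, capitals mark the letters the motif fixes, each sequence runs 5′ to 3′ on the strand named, and HSP90B1 holds a pair.
CALR, 207 bases before the start, the opposite strand: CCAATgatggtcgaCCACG
CANX, 133 bases before the start, the strand of the gene: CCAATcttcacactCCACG
CRELD2, 62 bases before the start, the opposite strand: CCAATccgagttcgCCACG
HSP90B1, 176 bases before the start, the strand of the gene: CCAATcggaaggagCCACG
HSP90B1, 71 bases before the start, the opposite strand: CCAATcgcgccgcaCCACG
HSPA5, 48 bases before the start, the strand of the gene: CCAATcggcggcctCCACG
PDIA6, 68 bases before the start, the strand of the gene: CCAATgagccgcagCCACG
XBP1, 34 bases before the start, the strand of the gene: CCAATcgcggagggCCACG

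The shorter ERSE-II, which is ATTGG, any base and CCACG, was found in HERPUD1, HYOU1 and SDF2L1, in 0.0513% of all windows. HYOU1 held it at 2 places, and one of these shares letters with a UPR element, TGACGTGG, which 0.612% of all windows held. The cAMP response element TGACGTCA, the core letters read by CREB-type factors, was found among members in CREB3L2, and in 1.65% of all windows. A C/EBP-ATF core, TGATGNAA, was found in HERPUD1, and in 3.14% of all windows. The full C/EBP palindrome TTGCGCAA was in no member window and in 0.131% of all windows. These letters describe the windows and are not evidence that a factor binds there, and the motifs were chosen with values of these genes known.
HERPUD1, 169 bases before the start, the opposite strand: TGATGcAA
CREB3L2, 172 bases before the start, the strand of the gene: TGACGTCA
HERPUD1, 107 bases before the start, the strand of the gene: ATTGGgCCACG
HYOU1, 69 bases before the start, the opposite strand: ATTGGaCCACG
HYOU1, 175 bases before the start, the opposite strand: ATTGGaCCACG
SDF2L1, 178 bases before the start, the opposite strand: ATTGGtCCACG
HYOU1, 181 bases before the start, the strand of the gene: TGACGTGG

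The windows of 4 members are printed whole, because XBP1 and HERPUD1 rose in both lines, HSPA5 changed differently between the lines, and CREB3L3 was near the floor in CTRL cells at 0 h. Capitals mark the ERSE in HSPA5 and XBP1 and, in HERPUD1, the ERSE-II and the reverse complement of the C/EBP-ATF core. The CREB3L3 window held none of these 6 motifs and is in lower case throughout.
HSPA5, chr9:125241344-125241593, minus strand: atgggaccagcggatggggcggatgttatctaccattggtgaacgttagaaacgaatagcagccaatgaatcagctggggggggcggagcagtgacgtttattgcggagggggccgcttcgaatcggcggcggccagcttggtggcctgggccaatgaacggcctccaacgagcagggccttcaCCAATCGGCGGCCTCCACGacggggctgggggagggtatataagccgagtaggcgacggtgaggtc
XBP1, chr22:28800570-28800819, minus strand: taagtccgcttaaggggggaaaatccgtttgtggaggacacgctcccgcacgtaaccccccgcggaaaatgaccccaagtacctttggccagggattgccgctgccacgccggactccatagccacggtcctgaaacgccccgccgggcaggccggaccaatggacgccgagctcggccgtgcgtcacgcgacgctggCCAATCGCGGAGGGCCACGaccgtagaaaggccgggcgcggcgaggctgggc
HERPUD1, chr16:56931892-56932141, plus strand: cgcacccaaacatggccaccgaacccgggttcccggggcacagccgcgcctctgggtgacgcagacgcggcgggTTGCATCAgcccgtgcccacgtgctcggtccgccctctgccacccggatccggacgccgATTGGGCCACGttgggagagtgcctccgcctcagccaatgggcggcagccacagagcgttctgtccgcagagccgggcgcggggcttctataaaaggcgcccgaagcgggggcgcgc
CREB3L3, chr19:4153381-4153630, plus strand: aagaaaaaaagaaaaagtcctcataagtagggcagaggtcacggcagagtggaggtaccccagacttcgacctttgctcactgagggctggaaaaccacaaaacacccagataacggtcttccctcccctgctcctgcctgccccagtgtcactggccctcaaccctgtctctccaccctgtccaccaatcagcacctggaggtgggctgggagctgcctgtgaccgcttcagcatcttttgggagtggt

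Levels across genes were compared as CPM per kb of the canonical transcript, averaged over the 24 libraries. The calcium-binding lectin chaperones led, with CALR at 405 and CANX at 267 CPM per kb, followed by the ER HSP90 (HSP90B1) at 213, the isomerases P4HB at 212 and PDIA6 at 189.7, and HSPA5 at 155. The sensors were far lower, with ATF6 at 14.5, EIF2AK3 at 5.78 and ERN1 at 3.58 CPM per kb, whereas the mRNA of the factor XBP1 stood at 90.3. Within the CREB3 family the order was CREB3 at 12.2, CREB3L1 at 7.71, CREB3L2 at 4.93, CREB3L4 at 1.58 and CREB3L3 at 0.590 CPM per kb. DERL3, the Derlin of secretory tissues, reached at most 3 counts in a library and was not tested, so that 35 members could be tested at most.

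**Figure D1:**
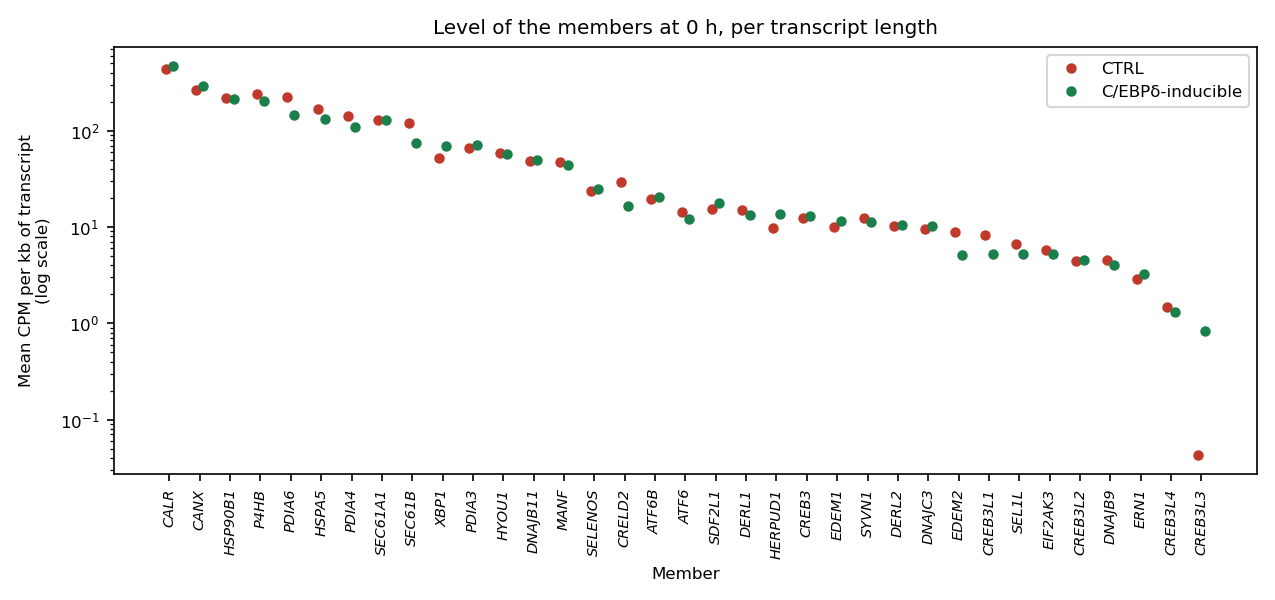
Mean level of each member at 0 h in CTRL cells (red) and C/EBPδ-inducible cells (green), in CPM per kb of transcript on a log axis, with DERL3 left out because it was at the floor. CALR and CANX lie at the top and CREB3L3 at the bottom.

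Summed over the 36 members, the level was 6874 ± 44.2 CPM (SD, n = 3) in CTRL cells at 0 h, 6611 ± 93.5 at 8 h, 6592 ± 77.5 at 24 h and 6533 ± 132 at 48 h. In the inducible cells the sum was 6500.5 ± 18.4 CPM at 0 h, 6805 ± 96.5 at 8 h, 6262 ± 71.4 at 24 h and 6311 ± 50.9 at 48 h. The lowest of the 8 group means was that of inducible cells at 24 h and the highest that of CTRL cells at 0 h, while single genes moved in opposite directions.

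Changes were called with the quasi-likelihood test of edgeR at a Benjamini-Hochberg FDR of 0.01 over all genes tested, with 3 libraries per group. In CTRL cells, HERPUD1 and XBP1 rose at 8 h, out of 34 members tested, where 1.7% of all genes tested were called, 0.905% higher and 0.793% lower. At 24 h, 3 members rose and 2 fell in CTRL cells (6.06% of all genes called, 2.81% higher and 3.25% lower), and at 48 h 9 rose and 7 fell of 35 (30% of all genes called, 15.2% higher and 14.7% lower). These 9 include CREB3L3, which was near the floor in CTRL cells at 0 h and whose call carries no weight. Among inducible libraries, 12 of 35 rose and 4 fell at 8 h (30.5% of all genes called, 14.6% higher and 15.8% lower). There 4 rose and 8 fell at 24 h (15.5% of all genes called, 7.33% higher and 8.14% lower), and 9 rose and 9 fell at 48 h (38.7% of all genes called, 19.1% higher and 19.5% lower). Median changes over the tested members lay between -0.05 and 0.09 in log2 fold change across these 6 comparisons, and those of all genes between -0.01 and 0.01. The share of members called ran from 5.88% to 51.4% over the 6 comparisons and lay above that of all genes in each, an excess that was not tested. As the members were chosen with earlier results of these data known, no conclusion is drawn from it.

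The change itself differed between the lines at 8 h for HSPA5, upward in inducible cells, and CREB3L1, downward there (1.66% of all genes called, 0.887% higher and 0.77% lower). HSPA5 and P4HB differed upward and CALR, CREB3L1 and CREB3L3 downward at 24 h (5.84% of all genes called, 2.86% higher and 2.98% lower) and, as the same 5 members, at 48 h, where CREB3L3 stood at 2 counts per CTRL library at 0 h and its calls against that group carry no weight (5.54% of all genes called, 2.83% higher and 2.72% lower). Some counts rested on 1 library, and the share of all genes called moved with them. In CTRL cells, 4 members were called at 8 h without library 1 of that time (5.02% of all genes), 3 at 24 h without library 3 at 0 h or library 1 or 2 at 24 h (3.25% to 3.6% of all genes), and 10 at 48 h without library 3 at 0 h (19.8% of all genes). The change differed between the lines for 8 members at 8 h without CTRL library 3 of that time, where 7.19% of all genes were called. Without inducible library 3 at 8 h, which stood apart, 15 members were called in inducible cells at 8 h (27.6% of all genes), with EDEM1 and HSP90B1 lost and HYOU1 gained, and HSPA5 and CREB3L1 were still the 2 members whose change differed between the lines. XBP1 was the one member that rose at all 3 times in both lines. HERPUD1 did so in CTRL cells, and ATF6, ERN1 and HSPA5 in inducible cells, while CALR, SDF2L1 and SEC61A1 fell at all 3 times in inducible cells. ATF6B, CREB3, CREB3L4, DERL2 and PDIA3 were not called by edgeR in the 11 comparisons, which include those between the lines. Under the alternatives, CREB3L4 was called at 48 h in CTRL cells without a count filter and in the model of all 24 libraries, CREB3 at 48 h in CTRL cells without library 1 at 48 h, and ATF6B between the lines at 24 h without CTRL library 3.

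**Figure D2:**
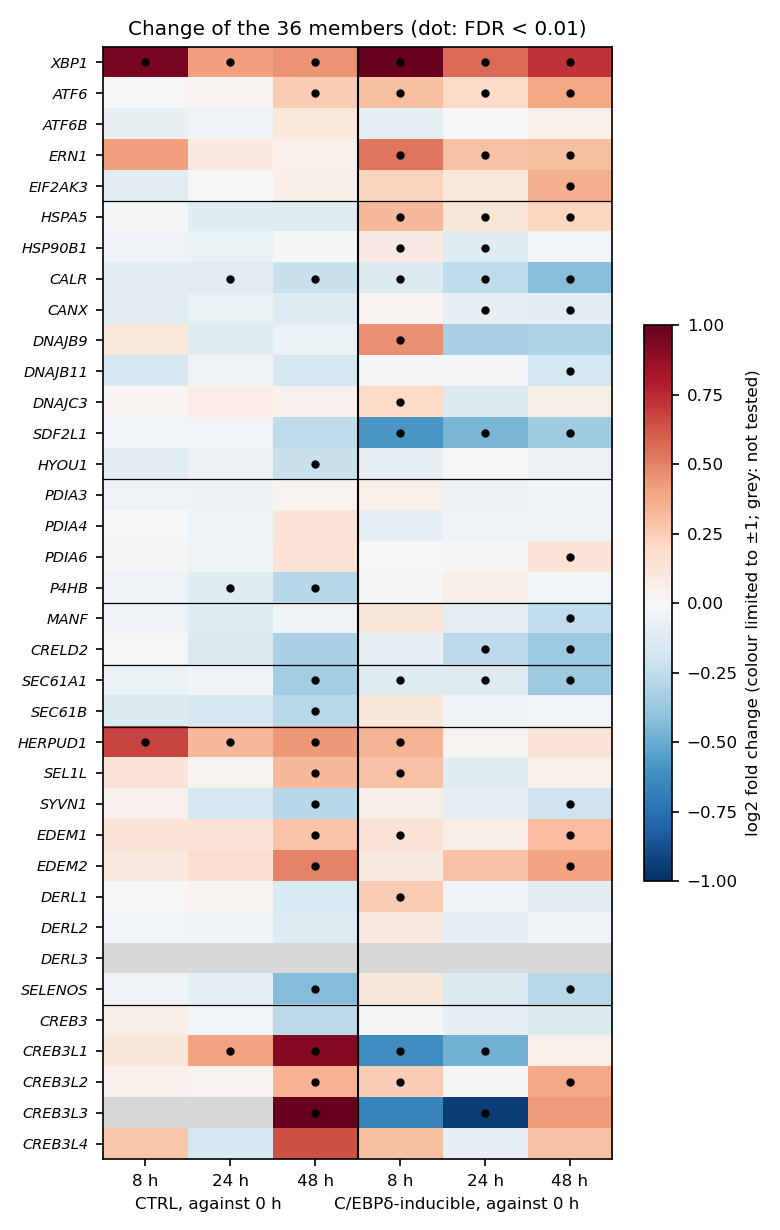
Log2 fold change against 0 h for the 36 members (rows, by role) in CTRL and C/EBPδ-inducible cells at 8, 24 and 48 h (columns), with colour limited to a size of 1, a dot where the FDR was under 0.01 and grey where a gene was not tested. XBP1 is dotted in every column, and HSPA5, ERN1 and ATF6 at 8 and 24 h in the inducible cells only.

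The 10 members with an ERSE or ERSE-II in their windows did not move as 1 group. In inducible cells, 4 of them rose and 2 fell at 8 h (14.6% higher and 15.8% lower over all genes), 2 rose and 5 fell at 24 h (7.33% higher and 8.14% lower), and 3 rose and 4 fell at 48 h (19.1% higher and 19.5% lower). In CTRL cells, 2 rose and 0 fell at 8 h (0.905% higher and 0.793% lower over all genes), 2 rose and 1 fell at 24 h (2.81% higher and 3.25% lower), and 2 rose and 2 fell at 48 h (15.2% higher and 14.7% lower). Their median log2 fold changes at 8, 24 and 48 h were 0.01, -0.05 and -0.04 in inducible cells and -0.02, -0.06 and -0.13 in CTRL cells.

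Among the sensors and their factors, XBP1 rose in both lines, whereas calls for ERN1 were made in the inducible cells and EIF2AK3 was called at 48 h there. XBP1 (ENSG00000100219, chr22:28794555-28800597), the factor that IRE1 activates by splicing, rose 1.93-fold in CTRL cells and 1.99-fold in inducible cells within 8 h. For XBP1, the 3 CTRL libraries gave 92.4, 95.4 and 92.9 CPM at 0 h, then 174, 174 and 186 at 8 h, then 125, 126 and 120.2 at 24 h and 118, 132 and 135 at 48 h. XBP1 in inducible libraries read 128, 120.4 and 128 CPM at 0 h, then 255, 241 and 258 at 8 h, then 188, 185 and 182 at 24 h and 215, 205 and 207 at 48 h. Every treated library of a line lay above every 0 h library of that line, and the level was highest at 8 h. Its log2 fold change in CTRL cells was 0.95 (SE 0.052, adjusted p = 3.16e-06) at 8 h, 0.41 (SE 0.035, adjusted p = 8.76e-08) at 24 h and 0.45 (SE 0.056, adjusted p = 4.77e-05) at 48 h. The inducible values were 1.00 (SE 0.036, adjusted p = 6.71e-15), 0.57 (SE 0.036, adjusted p = 1.24e-11) and 0.73 (SE 0.035, adjusted p = 5.57e-15) at the same times. The change was not called different between the lines by edgeR, with differences of 0.07 (SE 0.063, adjusted p = 0.542) at 8 h, 0.16 (SE 0.05, adjusted p = 0.0345) at 24 h and 0.26 (SE 0.068, adjusted p = 0.0159) at 48 h. The difference at 48 h was called by DESeq2, without a count filter, in the model of all 24 libraries and without CTRL library 2 at 48 h. Gene counts do not separate the spliced from the unspliced form of XBP1.

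ERN1 (ENSG00000178607, chr17:64039080-64130819), which encodes IRE1, was a low gene with a smaller change. For ERN1, the 3 CTRL libraries gave 24.03, 22.1 and 21.9 CPM at 0 h, then 30.1, 27.6 and 30.9 at 8 h, then 24.1, 23.04 and 25.4 at 24 h and 22.1, 24.1 and 24.5 at 48 h. ERN1 in inducible libraries read 25.5, 26.5 and 24.8 CPM at 0 h, then 37.2, 37.4 and 37.2 at 8 h, then 31.2, 30.5 and 32.3 at 24 h and 30.4, 31.6 and 33.7 at 48 h. All treated inducible libraries lay above those at 0 h, while in CTRL cells the libraries at 8 h lay above 0 h and those at 24 and 48 h overlapped it. In inducible cells the log2 fold change was 0.53 (SE 0.053, adjusted p = 5.32e-08) at 8 h, 0.30 (SE 0.057, adjusted p = 0.000398) at 24 h and 0.30 (SE 0.059, adjusted p = 0.000118) at 48 h. CTRL cells gave 0.41 (SE 0.078, adjusted p = 0.0147) at 8 h, 0.10 at 24 h and 0.05 at 48 h, none of which passed the threshold, whereas the 8 h value was called by DESeq2, without a count filter, in the model of all 24 libraries and without CTRL library 1 at 8 h. The difference between the lines was 0.15 (SE 0.088, adjusted p = 0.333) at 8 h, 0.21 (SE 0.084, adjusted p = 0.137) at 24 h and 0.24 (SE 0.10, adjusted p = 0.125) at 48 h, so that a different response of ERN1 in the lines was not shown.

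ATF6 (ENSG00000118217, chr1:161766298-161977574), the sensor cleaved in the Golgi, rose at all times in inducible cells and at 48 h in CTRL cells. For ATF6, the 3 CTRL libraries gave 108, 106 and 103 CPM at 0 h, then 96.7, 103 and 113 at 8 h, then 108, 108 and 106 at 24 h and 123, 129.5 and 128 at 48 h. ATF6 in inducible libraries read 89.96, 89.9 and 92.4 CPM at 0 h, then 109.8, 114 and 113 at 8 h, then 101, 108 and 100.2 at 24 h and 119, 121 and 119 at 48 h. In inducible cells the 3 treated groups lay above 0 h without overlap, and CTRL libraries at 8 and 24 h overlapped those at 0 h. ATF6 gave a log2 fold change of 0.30 (SE 0.031, adjusted p = 1.03e-07) at 8 h, 0.19 (SE 0.039, adjusted p = 0.000876) at 24 h and 0.39 (SE 0.035, adjusted p = 1.12e-09) at 48 h in inducible cells, and 0.25 (SE 0.047, adjusted p = 0.000859) at 48 h in CTRL cells. Between the lines this change differed by 0.33 (SE 0.072, adjusted p = 0.0154) at 8 h, 0.17 (SE 0.051, adjusted p = 0.0303) at 24 h and 0.12 (SE 0.054, adjusted p = 0.175) at 48 h, short of the threshold at each time. The 8 h value was called by DESeq2, without a count filter, in the model of all 24 libraries and without CTRL library 1 or 3 at 8 h. The call at 48 h in CTRL cells was lost without library 2 or 3 at 0 h (adjusted p = 0.0104 and 0.0185).

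EIF2AK3 (ENSG00000172071, chr2:88556741-88691518), which encodes PERK, was called by edgeR at 48 h in inducible cells, and at 8 h there without a count filter or without library 2 at 8 h. For EIF2AK3, the 3 CTRL libraries gave 25.9, 26.7 and 25.2 CPM at 0 h, then 21.1, 24.5 and 25.6 at 8 h, then 25.4, 27.3 and 24.5 at 24 h and 26.9, 26.9 and 27.7 at 48 h. EIF2AK3 in inducible libraries read 24.5, 24.7 and 21.4 CPM at 0 h, then 28.3, 25.5 and 29.7 at 8 h, then 24.4, 26.7 and 24.7 at 24 h and 30.9, 30.3 and 30 at 48 h. The 48 h libraries of the inducible cells lay above all of those at 0 h. Its log2 fold change there was 0.35 (SE 0.063, adjusted p = 3.78e-05), against 0.06 (SE 0.066, adjusted p = 0.465) in CTRL cells, and the difference was 0.28 (SE 0.092, adjusted p = 0.058). ATF6B, the paralog of ATF6, spanned 46 to 64.6 CPM over the 24 libraries and was not called with all libraries in any comparison by edgeR. Exons of ATF6B, ERN1 and EIF2AK3 overlap other genes, and as the strand setting of the counting is not stated, reads of those genes cannot be told apart there.

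**Figure D3:**
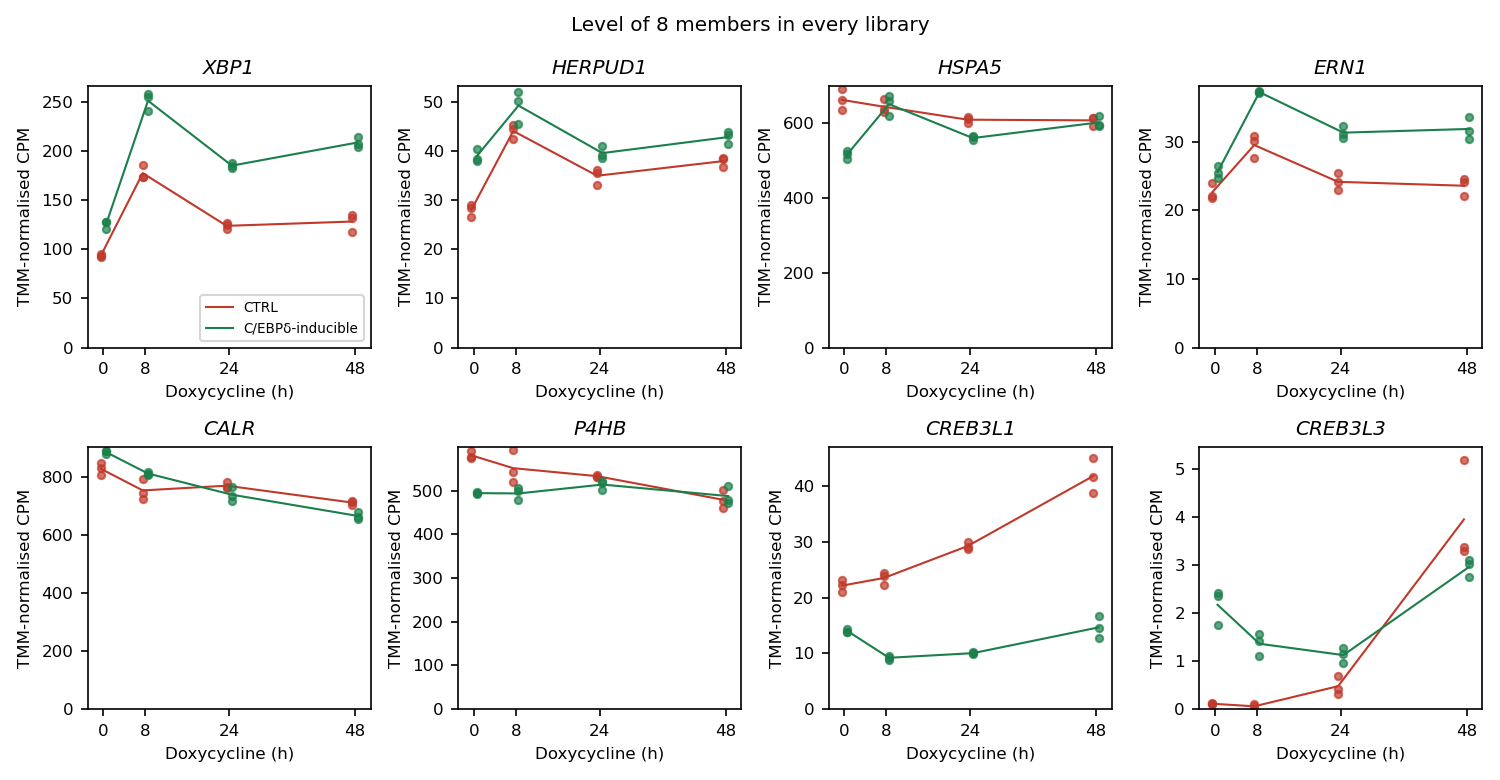
CPM in every library at 0, 8, 24 and 48 h for 8 members, with points for libraries, lines through the means of 3, CTRL cells in red and C/EBPδ-inducible cells in green. XBP1 peaks at 8 h in both lines, HSPA5 rises in inducible cells from a lower start, and CREB3L3 starts near 0 in CTRL cells and passes the inducible cells at 48 h.

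Of the 9 chaperones and co-chaperones, 4 rose and 2 fell at 8 h in inducible cells, where 14.6% higher and 15.8% lower were the shares called over all genes. At 24 and 48 h 1 rose and 4 fell at each time, against 7.33% higher and 8.14% lower over all genes at 24 h and 19.1% higher and 19.5% lower at 48 h. HSPA5 (ENSG00000044574, chr9:125234853-125241382), or BiP, the central ER chaperone and the gene most used to read the UPR, rose at all 3 times in inducible cells, while its CTRL estimates lay at or below 0. For HSPA5, the 3 CTRL libraries gave 635, 691 and 663 CPM at 0 h, then 667, 630.0 and 638 at 8 h, then 617, 613 and 600.0 at 24 h and 615, 594 and 615 at 48 h. HSPA5 in inducible libraries read 519, 506 and 526 CPM at 0 h, then 674, 619.7 and 661 at 8 h, then 565, 563 and 555 at 24 h and 619, 594 and 596 at 48 h. Inducible libraries at 0 h were the lowest of all and each treated inducible group lay above them, whereas CTRL libraries at 24 and 48 h lay below those at 0 h and the ones at 8 h overlapped them. HSPA5 gave log2 fold changes of 0.33 (SE 0.03, adjusted p = 1.56e-08) at 8 h, 0.12 (SE 0.026, adjusted p = 0.00102) at 24 h and 0.21 (SE 0.028, adjusted p = 5.67e-07) at 48 h in inducible cells. The CTRL values were -0.01 (SE 0.044, adjusted p = 0.9) at 8 h, -0.12 (SE 0.029, adjusted p = 0.0101) at 24 h and -0.13 (SE 0.04, adjusted p = 0.0204) at 48 h, which miss the threshold. The fall at 24 h was called by DESeq2, without a count filter, with the replicate number as a block and without CTRL library 1 at 0 h. The one at 48 h was called without a count filter, in the model of all 24 libraries and without CTRL library 1 at 0 h or at 48 h. The lines differed in the change by 0.37 (SE 0.056, adjusted p = 0.00119) at 8 h, 0.25 (SE 0.039, adjusted p = 8.68e-05) at 24 h and 0.33 (SE 0.049, adjusted p = 0.000126) at 48 h. This stands beside a start that was lower by 0.37 on the log2 scale in inducible cells, so that the gap narrowed. Against CTRL libraries of the same time, inducible libraries overlapped at 8 and 48 h and lay below at 24 h. Against CTRL libraries at 0 h, inducible libraries at 8 h overlapped, and those at 24 and 48 h lay below. The call at 24 h in inducible cells was lost without library 2 at 0 h (adjusted p = 0.0130).

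CALR (ENSG00000179218, chr19:12938578-12944489), calreticulin, the luminal lectin that holds glycoproteins for folding and stores calcium, went the other way. For CALR, the 3 CTRL libraries gave 806, 847 and 832 CPM at 0 h, then 795, 723 and 743 at 8 h, then 783, 765 and 761 at 24 h and 713, 703 and 719 at 48 h. CALR in inducible libraries read 890.0, 889 and 878 CPM at 0 h, then 808, 812 and 817 at 8 h, then 764, 718 and 734 at 24 h and 680.3, 661 and 656 at 48 h. Treated inducible libraries lay below those at 0 h without overlap and fell further with each time. Treated CTRL libraries also lay below those at 0 h without overlap at each time. At 8 h the CTRL fall was not called by edgeR with all libraries of the 2 groups. It was called in the model of all 24 libraries and without CTRL library 1 at 8 h. CALR gave log2 fold changes of -0.13 (SE 0.019, adjusted p = 7.82e-06) at 8 h, -0.26 (SE 0.026, adjusted p = 3.86e-08) at 24 h and -0.42 (SE 0.026, adjusted p = 5.29e-13) at 48 h in inducible cells, and -0.10 (SE 0.024, adjusted p = 0.00895) at 24 h and -0.22 (SE 0.034, adjusted p = 0.000231) at 48 h in CTRL cells. The fall was larger in inducible cells, with differences of -0.15 (SE 0.036, adjusted p = 0.00733) at 24 h and -0.21 (SE 0.041, adjusted p = 0.00218) at 48 h. The 24 h calls were fragile. The one in CTRL cells was kept only without library 1 at 0 h (adjusted p of 0.0216 to 0.0698 on leaving out any other), and the difference at 24 h was lost in 10 of 12 such fits (0.0137 to 0.0360). CALR overlaps exons of other genes, with the same limit on strand.

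SDF2L1 (ENSG00000128228, chr22:21642302-21644299), a small cofactor of BiP and a common UPR target, also fell in inducible cells. For SDF2L1, the 3 CTRL libraries gave 11.99, 12.98 and 12.7 CPM at 0 h, then 13.2, 12.9 and 10.1 at 8 h, then 10.8, 12 and 13.98 at 24 h and 10.02, 10.7 and 10.96 at 48 h. SDF2L1 in inducible libraries read 15.2, 14.8 and 13.7 CPM at 0 h, then 11.1, 8.54 and 9.66 at 8 h, then 10.4, 9.82 and 11.4 at 24 h and 12.96, 10.3 and 11.4 at 48 h. The 3 treated inducible groups lay below 0 h without overlap, and CTRL libraries at 8 and 24 h overlapped those at 0 h. Its log2 fold change was -0.58 (SE 0.10, adjusted p = 5.27e-05) at 8 h, -0.46 (SE 0.085, adjusted p = 0.00023) at 24 h and -0.35 (SE 0.09, adjusted p = 0.00196) at 48 h in inducible cells, and -0.26 (SE 0.089, adjusted p = 0.0348) at 48 h in CTRL cells. The difference between the lines was -0.53 (SE 0.16, adjusted p = 0.0582) at 8 h and -0.43 (SE 0.13, adjusted p = 0.0332) at 24 h, both short of the threshold, although the 8 h value was called without CTRL library 3 at 8 h. The call at 48 h was lost without library 1 or 2 at 0 h or library 2 at 48 h (adjusted p of 0.0106 to 0.0329).

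The other chaperones moved by small amounts, at 8 h mostly upward in inducible cells. There, the BiP co-chaperones DNAJB9 and DNAJC3 rose by 0.45 and 0.20 in log2 fold change (adjusted p = 0.000472 and 0.000172), and HSP90B1 by 0.08 (adjusted p = 0.00824). At 24 h HSP90B1 and the membrane lectin CANX fell by 0.12 and 0.08, and at 48 h DNAJB11 and CANX fell by 0.17 and 0.10 on the log2 scale. In CTRL cells HYOU1, the large nucleotide exchange factor of BiP, fell by 0.22 at 48 h (adjusted p = 0.00206). Each call named here for HSP90B1, CANX, DNAJB11 and HYOU1 was lost in at least 1 fit without a library. For HSP90B1 that held without library 2 or 3 at 0 h or library 1 or 3 at 8 h (adjusted p of 0.0161 to 0.0387), and at 24 h without library 1 or 3 at 0 h or library 3 at 24 h (0.0190 to 0.0236). For CANX it held at 24 h without any library at 0 h or library 3 at 24 h (0.0240 to 0.0308) and at 48 h without library 1 at 0 h (0.0108), for DNAJB11 without library 1 or 3 at 0 h (0.0148 and 0.0182), and for HYOU1 without CTRL library 3 at 0 h (0.0119).

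The protein disulfide isomerases, which form and reshuffle disulfide bonds, changed little within a line. P4HB (ENSG00000185624, chr17:81843159-81860856), the archetypal isomerase, fell in CTRL cells and was not called in inducible cells. For P4HB, the 3 CTRL libraries gave 574, 591 and 576 CPM at 0 h, then 592, 543 and 519 at 8 h, then 530.4, 532 and 536 at 24 h and 501, 460.0 and 476 at 48 h. P4HB in inducible libraries read 498, 493 and 491 CPM at 0 h, then 505, 477 and 498 at 8 h, then 522, 518 and 502 at 24 h and 511, 472 and 478 at 48 h. CTRL libraries at 24 and 48 h lay below those at 0 h, and inducible libraries overlapped 0 h at 8 and 48 h. P4HB gave CTRL log2 fold changes of -0.12 (SE 0.025, adjusted p = 0.00271) at 24 h and -0.28 (SE 0.041, adjusted p = 0.000162) at 48 h, against 0.06 (SE 0.026, adjusted p = 0.105) and -0.03 (SE 0.03, adjusted p = 0.421) in inducible cells. The change differed between the lines by 0.19 (SE 0.035, adjusted p = 0.000496) at 24 h and 0.24 (SE 0.051, adjusted p = 0.0039) at 48 h. The CTRL call at 24 h was lost without library 2 or 3 at 0 h or library 1 or 2 at 24 h (adjusted p of 0.0132 to 0.0282), and the difference at 48 h in 7 of 12 fits without a library, among them each without an inducible library at 0 h (0.0102 to 0.0159). In the model of all 24 libraries, the CTRL call at 24 h and the difference at 24 h were both lost (adjusted p = 0.0660 and 0.0579). P4HB shares exon sequence with overlapping genes. Of the other isomerases, PDIA6 rose at 48 h in inducible cells by 0.14 on the log2 scale (adjusted p = 0.000382). It was also called at 48 h in CTRL cells in the model of all 24 libraries and without CTRL library 1 at 48 h. PDIA4 and PDIA3 were not called by edgeR within a line and spanned 278 to 436 CPM and 231 to 274 CPM. PDIA4 was called at 48 h in CTRL cells in the model of all 24 libraries, where it stood at 436, 432 and 435 CPM against 391, 404 and 390.5 at 0 h without overlap, and at 8 h in inducible cells under the replicate block.

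Both stress factors, CRELD2 and MANF, fell late in inducible cells and were not called by edgeR in CTRL cells. CRELD2 (ENSG00000184164, chr22:49918167-49927540), a resident protein released under ER stress, is a standard target of ATF6. For CRELD2, the 3 CTRL libraries gave 42.1, 39.8 and 44.1 CPM at 0 h, then 41.96, 40.7 and 41.2 at 8 h, then 37.2, 37.2 and 39.5 at 24 h and 36.1, 28.6 and 36.1 at 48 h. CRELD2 in inducible libraries read 23.1, 24.8 and 23.6 CPM at 0 h, then 22.8, 21.97 and 23.2 at 8 h, then 19.8, 19.9 and 19.8 at 24 h and 19.8, 17.9 and 18.4 at 48 h. Inducible libraries lay below all CTRL libraries of the same time, and those at 24 and 48 h lay below 0 h within each line. In inducible cells the log2 fold change was -0.26 (SE 0.063, adjusted p = 0.0031) at 24 h and -0.37 (SE 0.067, adjusted p = 5.51e-05) at 48 h, and in CTRL cells -0.14 (SE 0.052, adjusted p = 0.0899) and -0.32 (SE 0.089, adjusted p = 0.0112), which miss the threshold, while the latter was called by DESeq2, without a count filter, in the model of all 24 libraries, with the replicate block and without CTRL library 1 at 48 h. The call at 24 h was lost without library 2 or 3 at 0 h or library 3 at 24 h (adjusted p of 0.0122 to 0.0271). CRELD2 overlaps ALG12. MANF, another secreted protector of ER homeostasis, fell in inducible cells at 48 h by 0.24 on the log2 scale (adjusted p = 0.00037). In CTRL cells it averaged 43.6 CPM at 0 h and 42.3 at 48 h, with libraries that overlapped.

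The translocon, the channel through which new chains enter the ER, fell in both lines at 48 h in its pore subunit SEC61A1 (ENSG00000058262, chr3:128051641-128071705). For SEC61A1, the 3 CTRL libraries gave 455, 459 and 461 CPM at 0 h, then 440.2, 426 and 419.8 at 8 h, then 446, 448 and 441 at 24 h and 363, 356 and 363 at 48 h. SEC61A1 in inducible libraries read 452, 460.1 and 457 CPM at 0 h, then 437, 420.3 and 408 at 8 h, then 427, 413 and 412 at 24 h and 374, 349 and 348 at 48 h. In both lines every 48 h library lay below every 0 h library. The log2 fold change at 48 h was -0.35 (SE 0.036, adjusted p = 1.03e-05) in CTRL cells and -0.37 (SE 0.03, adjusted p = 1.95e-10) in inducible cells. Inducible cells also showed -0.12 (SE 0.029, adjusted p = 0.00175) at 8 h and -0.13 (SE 0.027, adjusted p = 0.00105) at 24 h, of which the former was lost without library 2 or 3 at 0 h (adjusted p = 0.0112 and 0.0109) and the latter without library 3 (0.0114). CTRL libraries at 8 and 24 h also lay below those at 0 h without overlap, although edgeR made no call there, so that an early fall was not particular to inducible cells. The subunit SEC61B (ENSG00000106803, chr9:99222064-99230615), which spans the membrane beside the pore, behaved differently. For SEC61B, the 3 CTRL libraries gave 69.6, 65.2 and 70.5 CPM at 0 h, then 55.3, 60.7 and 67.01 at 8 h, then 61.8, 60.2 and 61.6 at 24 h and 53.5, 58.7 and 58.1 at 48 h. SEC61B in inducible libraries read 40.3, 40.7 and 44.5 CPM at 0 h, then 47.3, 43.8 and 45.1 at 8 h, then 39.9, 40.99 and 40.4 at 24 h and 41.4, 41.4 and 41.3 at 48 h. Inducible libraries lay below CTRL libraries at each of the 4 times, and within the inducible line each treated group overlapped 0 h, with the 8 h libraries above those at 24 and 48 h. SEC61B fell in CTRL cells at 48 h, with a log2 fold change of -0.27 (SE 0.059, adjusted p = 0.00231), a call lost without library 1 or 3 at 0 h (0.0105 and 0.0159), against -0.02 (SE 0.051, adjusted p = 0.729) in inducible cells and a difference of 0.24 (SE 0.076, adjusted p = 0.0501). Exons of SEC61A1 overlap RUVBL1.

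Within ER-associated degradation, which returns misfolded proteins to the cytosol for the proteasome, 4 of 8 tested members rose and 2 fell in CTRL cells at 48 h, where 15.2% higher and 14.7% lower were the shares over all genes. In inducible cells 4 rose at 8 h (14.6% higher and 15.8% lower over all genes) and 2 rose and 2 fell at 48 h (19.1% higher and 19.5% lower). HERPUD1 (ENSG00000051108, chr16:56932142-56944864), a scaffold of the degradation complex whose promoter holds both an ERSE-II and a C/EBP-ATF core, rose at 8 h in both lines. For HERPUD1, the 3 CTRL libraries gave 28.96, 26.6 and 28.4 CPM at 0 h, then 44.5, 42.4 and 45.2 at 8 h, then 33.1, 36.2 and 35.5 at 24 h and 36.6, 38.6 and 38.4 at 48 h. HERPUD1 in inducible libraries read 37.9, 38.4 and 40.3 CPM at 0 h, then 50.2, 51.9 and 45.5 at 8 h, then 41.01, 38.5 and 39.1 at 24 h and 43.1, 41.4 and 43.8 at 48 h. CTRL libraries at all treated times lay above 0 h without overlap, and inducible ones did so at 8 and 48 h. HERPUD1 gave CTRL log2 fold changes of 0.68 (SE 0.067, adjusted p = 0.000274) at 8 h, 0.32 (SE 0.056, adjusted p = 0.000564) at 24 h and 0.43 (SE 0.064, adjusted p = 0.000176) at 48 h. The inducible values were 0.34 (SE 0.049, adjusted p = 7.46e-06) at 8 h, 0.03 (SE 0.05, adjusted p = 0.733) at 24 h and 0.13 (SE 0.05, adjusted p = 0.0377) at 48 h, with a call at 8 h alone. The difference between the lines was -0.31 (SE 0.084, adjusted p = 0.0403), -0.29 (SE 0.074, adjusted p = 0.0124) and -0.31 (SE 0.078, adjusted p = 0.0137) at the 3 times, which misses the threshold, and inducible cells started from a higher level. The difference was called at 24 h without a count filter and without CTRL or inducible library 1 at 24 h, and at 48 h without CTRL library 1 at 48 h.

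The ligase SYVN1 (ENSG00000162298, chr11:65121780-65134532), which ubiquitinates the exported proteins, fell at 48 h in both lines. For SYVN1, the 3 CTRL libraries gave 37.6, 35.96 and 40.3 CPM at 0 h, then 39.8, 37.8 and 37.5 at 8 h, then 33.9, 33.8 and 32.9 at 24 h and 31.9, 29.3 and 32.3 at 48 h. SYVN1 in inducible libraries read 33.6, 33.7 and 34.8 CPM at 0 h, then 34.6, 36.6 and 35.7 at 8 h, then 32.2, 31.7 and 31.1 at 24 h and 28.7, 30.2 and 30.2 at 48 h. The 48 h libraries lay below those at 0 h in each line. Its log2 fold change was -0.29 (SE 0.07, adjusted p = 0.00531) in CTRL cells and -0.21 (SE 0.054, adjusted p = 0.00238) in inducible cells, and the CTRL call was lost without library 1 or 3 at 0 h or library 2 or 3 at 48 h (adjusted p of 0.0115 to 0.0281). The inducible call was lost by DESeq2 (adjusted p = 0.0126). SYVN1 overlaps FAU and MRPL49. SELENOS (ENSG00000131871, chr15:101270817-101277500), a selenoprotein that anchors the extracting ATPase, fell as well. For SELENOS, the 3 CTRL libraries gave 27.7, 29.4 and 28.9 CPM at 0 h, then 29.3, 24.5 and 27.7 at 8 h, then 26.5, 28.4 and 25.4 at 24 h and 19.7, 22.4 and 21.8 at 48 h. SELENOS in inducible libraries read 31.9, 29.99 and 28.9 CPM at 0 h, then 32.1, 31.7 and 35.7 at 8 h, then 27.8, 27.7 and 26.6 at 24 h and 26.99, 22.9 and 26.2 at 48 h. Libraries at 48 h lay below those at 0 h in each line, with log2 fold changes of -0.44 (SE 0.073, adjusted p = 0.000426) in CTRL cells and -0.27 (SE 0.066, adjusted p = 0.00116) in inducible cells, where the call was lost without library 1 at 0 h or library 2 at 48 h (0.0128 and 0.0253). EDEM2 (ENSG00000088298, chr20:35115364-35147336), a mannosidase that marks glycoproteins for disposal, rose at 48 h. For EDEM2, the 3 CTRL libraries gave 16.2, 17.5 and 16.8 CPM at 0 h, then 18.6, 17.6 and 16.8 at 8 h, then 18.6, 19.1 and 18.5 at 24 h and 25.2, 23.01 and 23.2 at 48 h. EDEM2 in inducible libraries read 10.3, 10.1 and 8.55 CPM at 0 h, then 9.30, 10.9 and 10.9 at 8 h, then 12, 11.8 and 11.6 at 24 h and 12.2, 13.7 and 12.6 at 48 h. In both lines the libraries at 48 h lay above those at 0 h, and inducible libraries were the lower ones at each time. The log2 fold change of EDEM2 at 48 h was 0.50 (SE 0.077, adjusted p = 0.000257) in CTRL cells and 0.40 (SE 0.092, adjusted p = 0.00075) in inducible cells, and the latter was lost without library 2 at 48 h (0.0103).

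The other degradation members gave smaller changes. EDEM1, a relative of EDEM2, rose at 48 h in both lines, by 0.29 and 0.31 in log2 fold change, and by 0.14 at 8 h in inducible cells. SEL1L, the partner of SYVN1, rose by 0.32 at 48 h in CTRL cells and by 0.30 at 8 h in inducible cells, and DERL1, a channel component, by 0.25 at 8 h in inducible cells. DERL2 spanned 35.96 to 48.6 CPM and was not called by edgeR. On leaving out 1 library, the EDEM1 call at 48 h in CTRL cells was lost without any library at 0 h or library 3 at 48 h (adjusted p of 0.0129 to 0.0234) and the one at 8 h without library 1 or 2 at 0 h or library 1 or 3 at 8 h (0.0157 to 0.0761). That of SEL1L in CTRL cells was lost without library 2 or 3 at 0 h or library 3 at 48 h (0.0126 to 0.0295).

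In the CREB3 family, CREB3L1 held the largest differences between the lines in the change with treatment, CREB3L3 left aside for its low counts, and CREB3 and CREB3L4 were not called by edgeR with all libraries. CREB3L1 (ENSG00000157613, chr11:46277662-46321409), or OASIS, a factor known for collagen secretion in bone, rose in CTRL cells and fell in inducible cells. For CREB3L1, the 3 CTRL libraries gave 21.01, 22.3 and 23.2 CPM at 0 h, then 24.5, 22.3 and 23.8 at 8 h, then 29.98, 28.7 and 29.1 at 24 h and 45.2, 38.8 and 41.7 at 48 h. CREB3L1 in inducible libraries read 14.4, 13.9 and 13.9 CPM at 0 h, then 8.88, 9.27 and 9.50 at 8 h, then 9.85, 10.2 and 10.1 at 24 h and 12.8, 14.6 and 16.6 at 48 h. CTRL libraries at 24 and 48 h lay above 0 h, inducible libraries at 8 and 24 h lay below it, and those at 48 h overlapped it. CREB3L1 gave CTRL log2 fold changes of 0.11 (SE 0.077, adjusted p = 0.458) at 8 h, 0.40 (SE 0.058, adjusted p = 7.79e-05) at 24 h and 0.91 (SE 0.077, adjusted p = 2.5e-06) at 48 h. The inducible values were -0.62 (SE 0.086, adjusted p = 5.36e-06) at 8 h, -0.48 (SE 0.081, adjusted p = 7.33e-05) at 24 h and 0.05 (SE 0.087, adjusted p = 0.671) at 48 h. The difference between the lines was -0.71 (SE 0.10, adjusted p = 0.000832) at 8 h, -0.88 (SE 0.092, adjusted p = 2.21e-07) at 24 h and -0.87 (SE 0.12, adjusted p = 7.94e-05) at 48 h, and no call for CREB3L1 was lost on leaving out 1 library. No other gene's exons overlap CREB3L1.

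CREB3L3 (ENSG00000060566, chr19:4153631-4173054), or CREBH, a factor of liver and intestine, was rare enough that counts are given. CTRL libraries held 2, 2 and 2 counts at 0 h, 0, 1 and 2 at 8 h, 13, 7 and 9 at 24 h and 104, 56 and 64 at 48 h. Inducible libraries held 44, 53 and 31 counts at 0 h, 27, 30 and 14 at 8 h, 19, 24 and 29 at 24 h and 55, 70 and 47 at 48 h. In CPM, CREB3L3 stood at 0.112, 0.120 and 0.104 in CTRL cells at 0 h and 5.19, 3.29 and 3.37 at 48 h, and at 2.34, 2.43 and 1.74 and 3.11, 3.02 and 2.74 in inducible cells. CTRL libraries at 0 and 8 h were at or under the floor of 3 counts and those at 48 h lay above all others of that line. As the 0 h counts are that low, the ratio of summed counts per total is the measure. CTRL cells at 48 h stood at 35.8 (95% exact interval 16.2 to 98.5) times 0 h and at 24 h at 4.17 (95% exact interval 1.70 to 12.3) times, while inducible cells stood at 0.516 (95% exact interval 0.381 to 0.694) times at 24 h and 1.35 (95% exact interval 1.07 to 1.72) times at 48 h. Inducible cells held 19.6 (95% exact interval 8.77 to 54.5) times the CTRL share at 0 h, 2.42 (95% exact interval 1.56 to 3.87) times at 24 h and 0.743 (95% exact interval 0.606 to 0.910) times at 48 h. These intervals cover counting error only. By edgeR, CREB3L3 fell at 24 h in inducible cells (adjusted p = 0.00384), a call lost by DESeq2 (adjusted p = 0.0171), with the replicate number as a block (0.0102) and without library 1 or 2 at 0 h or at 24 h (0.0121 to 0.0307). The calls that edgeR made at 48 h in CTRL cells and between the lines are given no p-value here, since CREB3L3 passed the count filter there through the groups where it was high. For the change between the lines at 24 h DESeq2 gave no adjusted p-value, and it did not make the call for the lines at 24 h. It was not tested at 8 and 24 h in CTRL cells.

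CREB3L2 (ENSG00000182158, chr7:137874979-138002086), a close relative of CREB3L1 that drives secretory genes in cartilage, rose late in both lines. For CREB3L2, the 3 CTRL libraries gave 33.2, 33.7 and 32.2 CPM at 0 h, then 33.3, 35.8 and 31.9 at 8 h, then 33.8, 32.3 and 35.2 at 24 h and 42.2, 42.7 and 41.5 at 48 h. CREB3L2 in inducible libraries read 34.8, 34.4 and 31.5 CPM at 0 h, then 38.1, 41.95 and 40.5 at 8 h, then 33.4, 32.7 and 33.03 at 24 h and 41.8, 47.1 and 43.5 at 48 h. Libraries at 48 h lay above those at 0 h in each line, with log2 fold changes of 0.35 (SE 0.059, adjusted p = 0.000469) in CTRL cells and 0.39 (SE 0.056, adjusted p = 2.23e-06) in inducible cells, and inducible cells also rose at 8 h, by 0.25 (SE 0.053, adjusted p = 0.000623). CREB3 (ENSG00000107175, chr9:35732598-35736999), the founding member, was at a similar level at 0, 8 and 24 h. Its libraries at 48 h lay below those at 0 h in each line, without a call by edgeR with all libraries. For CREB3, the 3 CTRL libraries gave 18.8, 18.1 and 19.01 CPM at 0 h, then 20.8, 18.8 and 17.3 at 8 h, then 19.3, 18.1 and 17.4 at 24 h and 16.7, 14.2 and 15.9 at 48 h. CREB3 in inducible libraries read 18.7, 20.2 and 19.3 CPM at 0 h, then 18.2, 19.4 and 20.8 at 8 h, then 20.4, 18.1 and 16.2 at 24 h and 17.5, 17.2 and 18.6 at 48 h. Its log2 fold changes at 48 h were -0.26 (SE 0.085, adjusted p = 0.0267) in CTRL and -0.14 (SE 0.07, adjusted p = 0.0913) in inducible cells. CREB3L4 (ENSG00000143578, chr1:153967534-153974361), a factor of prostate and testis, was low. For CREB3L4, the 3 CTRL libraries gave 1.96, 2.81 and 2.98 CPM at 0 h, then 3.25, 2.33 and 3.60 at 8 h, then 2.07, 2.24 and 2.61 at 24 h and 4.64, 3.58 and 3.84 at 48 h. CREB3L4 in inducible libraries read 2.45, 2.15 and 2.31 CPM at 0 h, then 2.58, 2.55 and 3.61 at 8 h, then 2.05, 2.38 and 2.07 at 24 h and 2.66, 3.28 and 2.45 at 48 h. The largest estimate was 0.64 (SE 0.19, adjusted p = 0.0162) at 48 h in CTRL cells, where the libraries lay above those at 0 h without a call by edgeR. Exons of CREB3 overlap GBA2, and those of CREB3L4 overlap JTB and SLC39A1.

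The lines were then compared with each other, at 0 h, before doxycycline, and at 24 h. At 0 h, 6 of 35 members were higher and 11 lower in inducible than in CTRL cells, with 43.9% of all genes called, 20% higher and 23.9% lower. At 24 h, 5 were higher and 12 lower, with 46.9% of all genes called, 21.5% higher and 25.3% lower. The higher members at both times were XBP1, HERPUD1, CANX and, from CTRL libraries near the floor, CREB3L3, and the lower ones at both times were HSPA5, PDIA4, PDIA6, CRELD2, SEC61B, EDEM2, SEL1L, DERL1 and CREB3L1. Among the widest gaps were those of CREB3L1, with a log2 fold change of -0.67 (SE 0.07, adjusted p = 1.18e-07) at 0 h and -1.55 (SE 0.069, adjusted p = 3.11e-16) at 24 h, and CRELD2, with -0.83 (SE 0.057, adjusted p = 2.65e-10) and -0.94 (SE 0.058, adjusted p = 2.76e-13). EDEM2 stood at -0.81 (SE 0.086, adjusted p = 1.49e-07) and -0.67 (SE 0.073, adjusted p = 1.38e-08), SEC61B at -0.72 (SE 0.049, adjusted p = 2.61e-10) and -0.60 (SE 0.043, adjusted p = 6.57e-12), and PDIA6 at -0.63 (SE 0.03, adjusted p = 9.12e-13) and -0.59 (SE 0.028, adjusted p = 9.57e-16). In the opposite direction XBP1 stood at 0.41 (SE 0.037, adjusted p = 1.33e-08) and 0.57 (SE 0.035, adjusted p = 2.26e-13), and HERPUD1 at 0.46 (SE 0.055, adjusted p = 6.34e-07) and 0.17 (SE 0.053, adjusted p = 0.00767). HSPA5 stood at -0.37 (SE 0.03, adjusted p = 3.27e-09) at 0 h and -0.13 (SE 0.026, adjusted p = 0.000174) at 24 h. Both comparisons use separate libraries, but each of them shares the difference between the clones and the CTRL cells.

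Several of these calls rested on single libraries. At 24 h the HERPUD1 call was kept only without inducible library 2 (adjusted p of 0.0105 to 0.0609 on leaving out any of the other 5), and those of HSP90B1, SEC61A1, DNAJB9, CREB3L3 and CANX were lost in at least 1 such fit. At 0 h the call of CALR, 0.09 (SE 0.024, adjusted p = 0.00456), was kept only without CTRL library 2 (0.0184 to 0.0422 on leaving out any of the other 5), and that of DERL1 was lost without inducible library 1 or 3 (0.0227 and 0.0182).

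**Figure D4:**
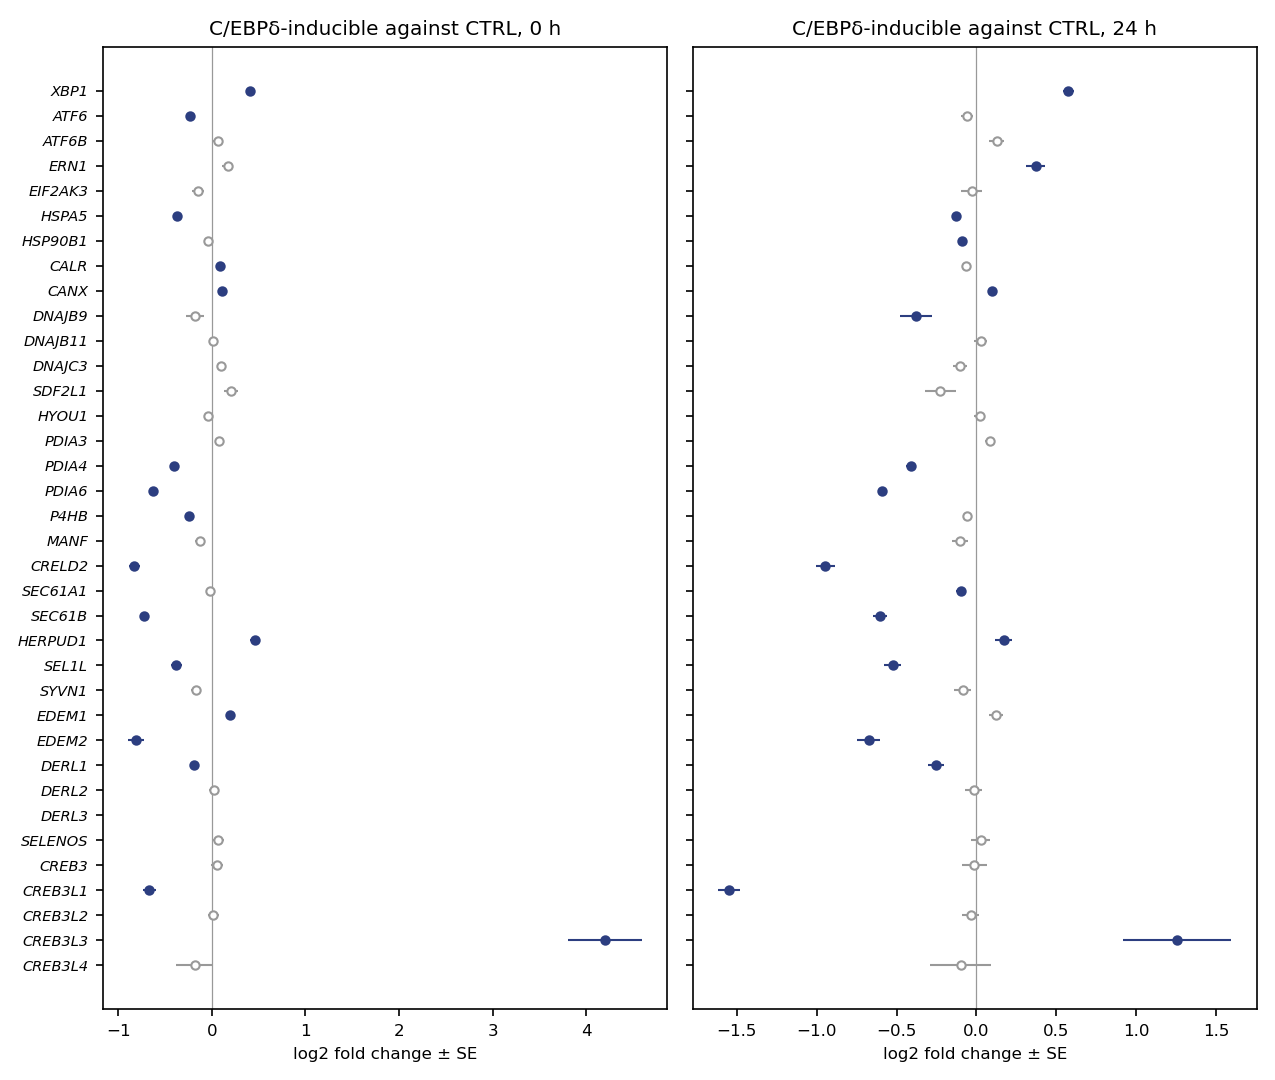
Log2 fold change of C/EBPδ-inducible against CTRL cells at 0 h and 24 h for each tested member, with bars of 1 SE and filled points where the FDR was under 0.01. CREB3L1, CRELD2 and EDEM2 lie far to the left and XBP1 to the right at both times, and the fitted value of CREB3L3 depends on the prior count.

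Of the lists of other genes on these pathways, the PERK arm moved most. It holds 10 genes of ATF4 and CHOP (DDIT3) signalling, which are also raised by amino acid shortage and other stresses through the same kinase target. At 8 h, 9 of 10 rose in CTRL cells and 10 of 10 in inducible cells, with medians of 1.49 and 1.30 in log2 fold change, where 0.905% and 14.6% of all genes tested were called higher. At 24 h 9 rose and 1 fell in CTRL cells (median 0.92, 2.81% higher and 3.25% lower over all genes) and 8 rose in inducible cells (median 0.95, 7.33% higher and 8.14% lower). At 48 h 9 rose and 1 fell in each line (medians 1.22 and 1.11), against 15.2% higher and 14.7% lower over all genes in CTRL cells and 19.1% higher and 19.5% lower in inducible cells. The gene that fell was PPP1R15A, the feedback phosphatase subunit, named after its values were seen. CHAC1, a glutathione-degrading enzyme, averaged 2.35 ± 0.371 CPM at 0 h and 19.2 ± 2.36 CPM at 8 h in CTRL cells, and 7.18 ± 0.449 CPM and 20.8 ± 0.836 CPM in inducible cells (SD, n = 3). Its log2 fold change at 8 h was 3.05 (SE 0.14, adjusted p = 1.1e-06) in CTRL cells and 1.53 (SE 0.085, adjusted p = 7.93e-12) in inducible cells, a difference of -1.50 (SE 0.17, adjusted p = 0.000129). The change at 8 h differed between the lines for 4 of the 10 genes (0.77% of all genes called lower), all smaller in inducible cells, among them CHAC1, DDIT4 by -0.59 (SE 0.084, adjusted p = 0.00074) and ATF4 by -0.39 (SE 0.066, adjusted p = 0.00257). At 24 and 48 h, TRIB3, a pseudokinase that binds ATF4, rose more in inducible cells, by 0.57 (SE 0.087, adjusted p = 5e-05) and 0.68 (SE 0.10, adjusted p = 9.51e-05), while the change of CHAC1 and ASNS was smaller there. At 0 h 9 of the 10 were higher in inducible than in CTRL cells, with a median of 0.68, led by VLDLR at 2.31 (SE 0.12, adjusted p = 5.95e-12), where 20% of all genes were called higher and DESeq2 called 6 of the 10. At 24 h 9 of 10 were higher, with a median of 0.49, where 21.5% of all genes were. The rise of this list in CTRL cells stands beside that of XBP1 and HERPUD1 there, while HSPA5, SDF2L1, CRELD2, PDIA4 and HYOU1 were not called higher by edgeR in CTRL cells at any time, with the exception for PDIA4 at 48 h in the model of all 24 libraries given above. At 48 h 9 of the members were called higher in CTRL cells, against 15.2% of all genes. Among them were ATF6, EDEM1, EDEM2, SEL1L, CREB3L1 and CREB3L2, and also CREB3L3, whose call from low counts carries no weight.

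**Figure D5:**
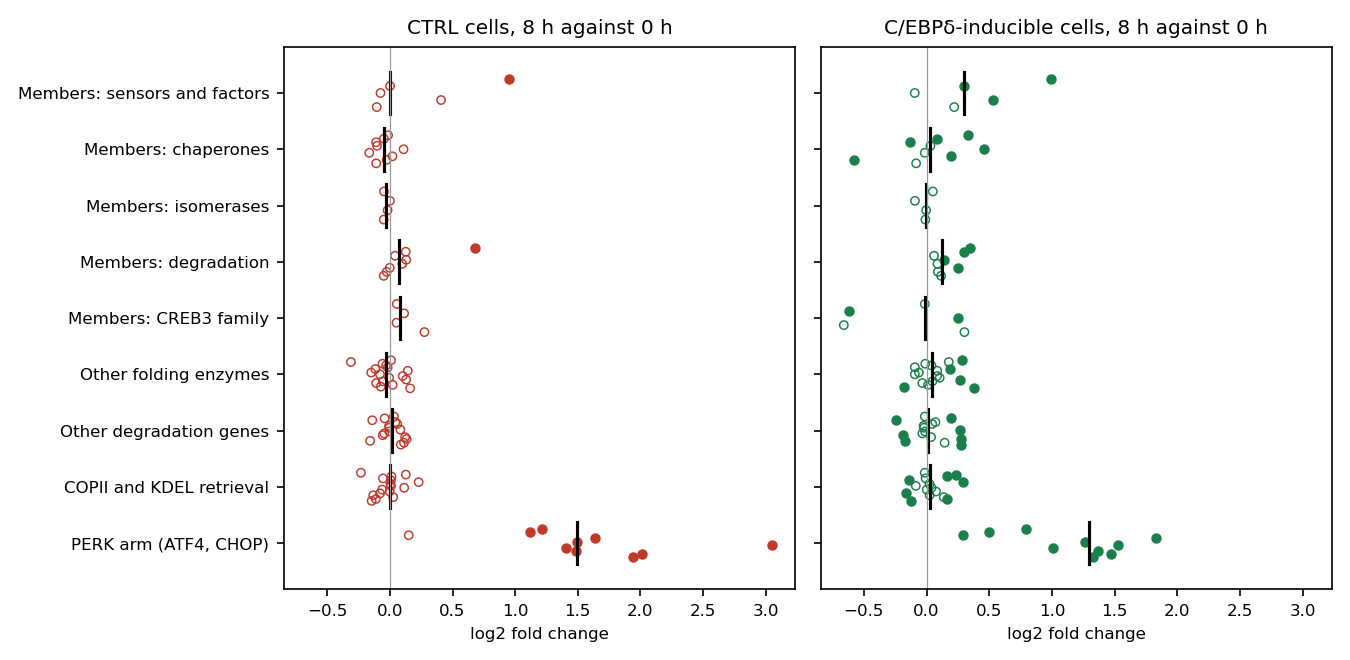
Log2 fold change at 8 h against 0 h in CTRL and C/EBPδ-inducible cells for each gene of the role groups and of the lists of other pathway genes, with filled points where the FDR was under 0.01 and a black bar at the median of each group. The PERK arm stands apart with medians of 1.49 and 1.30. The other medians are smaller, and that of the sensors and factors in inducible cells lies clearly above 0.

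The other lists moved by less. The shares called over all genes were 15.2% higher and 14.7% lower at 48 h in CTRL cells and, in inducible cells, 14.6% higher and 15.8% lower at 8 h and 19.1% higher and 19.5% lower at 48 h, and the counts of these lists are read against them. Of 17 other ER folding enzymes, 4 rose and 1 fell at 48 h in CTRL cells, led by the oxidase ERO1B at 0.74 in log2 fold change, and 5 rose and 3 fell in inducible cells. Of 16 other degradation genes, 2 rose and 6 fell at 48 h in each line, among them the ATPase VCP, with -0.53 (SE 0.037, adjusted p = 6.14e-07) in CTRL cells and -0.32 (SE 0.03, adjusted p = 2.33e-09) in inducible cells. Of 23 genes for the translocon, signal peptidase and oligosaccharyltransferase, 9 rose and 3 fell at 8 h in inducible cells, led by the signal peptidase subunit SEC11C at 0.45 and the chain-translocating protein TRAM1 at 0.38. In CTRL cells at 48 h, 3 of the 23 fell, led by the signal recognition receptor subunit SRPRB at -0.66 (SE 0.058, adjusted p = 3.17e-06). Of 16 genes for COPII vesicles and KDEL retrieval, which carry folded proteins out and escaped chaperones back, 4 rose and 5 fell at 48 h in CTRL cells and 3 rose and 7 fell in inducible cells. At 0 h 5 of these 16 were higher and 9 lower in inducible cells, against 20% higher and 23.9% lower over all genes, led by the retrieval receptor KDELR3 at -0.92 (SE 0.093, adjusted p = 7.21e-08). SEC24D, a coat subunit for collagen cargo, changed differently in the lines, by -0.46 (SE 0.089, adjusted p = 0.000807) at 24 h and -0.57 (SE 0.095, adjusted p = 0.00048) at 48 h. Of the 6 processing and partner genes, 2 rose and 1 fell at 48 h in each line, and the fall was that of HCFC1, a partner of CREB3, with -0.55 (SE 0.048, adjusted p = 2.89e-06) and -0.40 (SE 0.03, adjusted p = 3.69e-11).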

How the data were processed

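RNA was measured in 24 libraries of 2 MIA PaCa-2 lines at 4 times, grouped by the sample labels. Per the paper's methods, the authors removed ribosomal RNA, trimmed with Trimmomatic, mapped reads by HISAT2 (GRCh38) and used HTSeq with Ensembl 84 for the counting. The deposited values are raw counts, one column per library, and the authors' settings for strand and for multiply matching reads are not given in the sources used here. Gene names, coordinates and overlaps come from GENCODE 44 on GRCh38, with 56558 of 60675 identifiers matched, and promoter windows from RefSeq.

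Counts were scaled by TMM and tested with the two-sided quasi-likelihood test of edgeR 4.0.16 (limma 3.58.1, R 4.3.3) after filterByExpr, on the groups compared, with Benjamini-Hochberg adjustment over all genes tested and an FDR of 0.01. The difference between the lines is the interaction of line and time, given as the change in inducible minus that in CTRL cells. CPM use TMM factors of all 24 libraries, so that folds from CPM can differ slightly from fitted ones. Interval bounds for summed counts are exact at 95%, and the floor of 3 counts and these intervals cover counting error only. An exact permutation test of 3 against 3 libraries has 0.1 as its smallest p. Totals of 12731237 to 22598595 counts set the precision. The tests were checked on simulated counts.

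The members, lists and motifs were chosen with earlier results of these data known. Members given per library are those called in an interaction, the 3 largest calls in each direction at 24 and 48 h in each line, the CREB3 family, the 5 largest line differences at 0 h, and ERN1, ATF6, EIF2AK3, XBP1 and HSPA5. From the lists of other genes, at most the 3 largest calls per comparison are named. Alternatives were DESeq2 1.42.0, no count filter, the replicate number taken as a block, a joint fit of the 24 libraries, an analysis of variance on log2(CPM + 1) for the lines at 24 h, and leaving out each library. Replicate numbers come from the labels, which do not say that same-numbered wells belong together. Among the groups compared, the deviations of same-numbered libraries correlated above 0.1 in every pair only in CTRL cells between 24 and 0 h (0.143 to 0.190). Some other groups gave smaller correlations that were all positive, such as inducible cells between 48 and 0 h (0.040 to 0.155).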

Additional observations from a re-analysis of the deposited data

Results flagged for a closer look

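The change with treatment differed between the lines, by the interaction test of edgeR at an FDR of 0.01, for 5 members. The values are log2 differences, inducible minus CTRL. HSPA5 stood at 0.37 at 8 h, 0.25 at 24 h and 0.33 at 48 h, and P4HB at 0.19 at 24 h and 0.24 at 48 h. CALR stood at -0.15 at 24 h and -0.21 at 48 h. CREB3L1 stood at -0.71, -0.88 and -0.87 at the 3 times, and CREB3L3 at -2.95 at 24 h and -4.65 at 48 h, sizes that depend on the prior count because the CTRL libraries at 0 h held 2 counts each. CREB3L3 passed the count filter there through the groups where it was high, so that these values carry no weight, and DESeq2 gave no adjusted p-value for the one at 24 h.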

How the results depend on the processing

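The number of members called kept to within 1.5 times the reported value under most alternatives. On leaving out 1 library, it ran in CTRL cells from 2 to 4 at 8 h, 3 to 6 at 24 h and 10 to 20 at 48 h, in inducible cells from 13 to 17, 8 to 11 and 14 to 19 at these times, for the difference between the lines from 2 to 8, 4 to 6 and 4 to 6, and for inducible against CTRL cells from 15 to 18 at 0 h and 12 to 18 at 24 h. In one model of all 24 libraries, the count was 5 for CTRL cells at 8 h (7.22% of all genes called, against 1.7% as reported), 3 for CTRL cells at 24 h (3.42% against 6.06%) and 3 for the difference at 24 h (3.54% against 5.84%). The analysis of variance called 10 for the lines at 24 h (27.5% against 46.9%). The cause of these shifts was not tested. With the replicate block, the counts in the same order were 2, 6 and 14, then 17, 10 and 19, then 2, 4 and 5, and 16 and 16. Same-numbered libraries correlated above 0.1 in every pair in CTRL cells between 24 and 0 h alone, where the block added HSPA5 to the 5 members called. Elsewhere the labels and the correlations do not settle whether same-numbered wells belong together. No called value changed its sign. Depth limited CREB3L3 and DERL3, and strand limits the members with exons that overlap other genes.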
